A study of Mus musculus with 10 samples.

Results

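Collagen genes were examined in the cochlea of mice with and without noise exposure. The members were all probe sets whose gene symbol in the platform annotation is Col, a number, the letter a and a number, and 44 of the 12488 probe sets met this rule. They stand for 31 of the 8252 genes named on the array. Of the 31, 5 genes code for chains of fibrillar types (I, III and V), 7 for chains found in cartilage (II, IX, X and XI), 7 for chains of basement membranes (IV, XV and XVIII) and 12 for chains of other types.

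RNA from the cochlea, described in the labels as microdissected membranous labyrinth, was measured on 10 one-colour arrays, each hybridized with biotin-labelled cRNA made from 8 pooled mice. All mice were females aged 10 weeks, of the strains 129X1/SvJ, an inbred strain, or B6.CAST, a strain on the C57BL/6J background with a CAST segment around Cdh23. The noise groups received an octave band centred at 10 kHz at 105 dB SPL during 1 h, with tissue taken 6 h after its end, and the control groups of both strains had a sham stay in the same chamber. The 129X1/SvJ groups had 3 arrays each and the B6.CAST groups 2 each. Per its title, the study concerned noise-induced expression in strains of unlike susceptibility to noise damage.

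Collagens are triple helices of 3 polypeptide chains, secreted by cells and assembled outside them. Type I, III and V chains form the fibres of connective tissue and bone. Types II, IX and XI form the thin fibrils of cartilage and, in the inner ear, much of the tectorial membrane, the sheet that lies over the hair cells. Type IV forms the network of basement membranes, such as those around the capillaries of the stria vascularis, and types XV and XVIII are proteoglycans anchored to them. Mutations in several chains of types II, IV, IX and XI cause hearing loss in people or mice.

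The labelled tissue was checked first against genes known from the cochlea. Coch, a matrix protein of the spiral ligament and limbus, had signals between 12604 and 20801 on the 10 arrays, and Gjb2, the connexin of supporting cells and fibrocytes, between 9075 and 24581. Otog, a tectorial membrane glycoprotein, lay between 344 and 611. One library stood apart from the rest: the mean correlation of the first 129X1/SvJ noise array with the other 9 arrays was 0.910, against 0.943 to 0.955 for the others. Signal from 3′ over 5′ Gapdh control probe sets, which bears on RNA integrity, gave 29.2 for the second 129X1/SvJ control array and 6.94 for the first B6.CAST noise array, against 0.790 to 1.40 for the other 8.

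The 4 pairs of collagen genes looked up in the genome lie side by side with 0 coding genes between them. They are Col4a1 and Col4a2, Col6a1 and Col6a2, Col3a1 and Col5a2, and Col4a3 and Col4a4, and other pairs were not looked up. Start sites are shown for the first 2 of these pairs, whose levels are compared below, and for a pair of chains with many GC boxes. Sequences and positions are from RefSeq (GRCm38.p6), read 5′ to 3′. Capitals mark GC boxes, searched as GGGCGG on both strands. Col4a1 and Col4a2 are transcribed in opposite directions, and their annotated transcripts overlap by 22 bases at their 5′ ends, at chr8:11312805-11312826 (plus strand shown). Col6a1 and Col6a2 are neighbours on the minus strand of chromosome 10 with 0 coding genes between them. For these and for Col8a1 and Col18a1, all on the minus strand, the 100 bases before an annotated start are given, at chr10:76726045-76726144, chr10:76623631-76623730, chr16:57754738-57754837 and chr10:77166531-77166630.
Col4a1 and Col4a2 overlap: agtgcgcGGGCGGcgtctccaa
Col6a1: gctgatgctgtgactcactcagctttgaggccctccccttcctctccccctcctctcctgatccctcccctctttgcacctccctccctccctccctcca
Col6a2: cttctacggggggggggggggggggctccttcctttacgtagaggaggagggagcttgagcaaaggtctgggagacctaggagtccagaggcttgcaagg
Col8a1: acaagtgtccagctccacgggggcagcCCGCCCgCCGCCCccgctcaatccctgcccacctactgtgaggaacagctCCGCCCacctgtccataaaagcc
Col18a1: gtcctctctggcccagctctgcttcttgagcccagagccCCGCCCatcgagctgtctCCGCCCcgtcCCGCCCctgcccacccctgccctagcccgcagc
The overlap holds 1 GC box, the Col8a1 and Col18a1 windows hold 3 each, and the Col6a1 and Col6a2 windows of this length hold 0.

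Promoter entries matched 22 of the 31 genes, with 25 windows of 250 bases before a start, since some genes have more than 1 start. The GC box was found in 48.0% of these windows and in 32.7% of all 32851 windows of that length. The CCAAT box, searched as CCAAT, was found in 36.0% of collagen windows and in 33.8% of all. The TATA box, searched as TATAAA, was found in 5 of the 25 collagen windows and in 12.4% of all. All were searched on both strands, and none of the 3 motifs contains another. The median GC content was 57.6% in the collagen windows and 52.4% in all windows. These matches describe the letters only.

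Of the 44 collagen probe sets, 32 probe sets of 26 genes passed the filter on dim probe sets, which was set on the mean over all 10 arrays and left 8695 probe sets to test. Col4a3, Col4a4, Col10a1, Col17a1 and Col22a1 were left out as dim, and 6 further genes lost 1 or more of several probe sets. Levels are deposited signals (linear intensities) per array, and differences are on the log2(signal + 16) scale after quantile normalization, with the standard error of the limma fit. In none of the 7 comparisons was any of the 32 collagen probe sets called by limma at a Benjamini-Hochberg adjusted p under 0.05. The same fit called 0.506% of all tested probe sets for noise in 129X1/SvJ, 0.046% for noise in B6.CAST, 0.46% for the mean of both noise effects and 0% for their difference. Between strains it called 0.92% in control mice, 1.45% in noise-exposed mice and 3.24% for the mean of both conditions. At the shares of the noise comparisons, less than 1 call among 32 probe sets is the background.

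The numbers of collagen probe sets with an unadjusted limma p under 0.05 were set beside the share over all probe sets. They were 5 of 32 for noise in 129X1/SvJ, beside 11.5% of all probe sets, 2 for noise in B6.CAST (2.1% of all), 2 for the mean noise effect (7.63%) and 2 for the difference of noise effects (2.97%). Between strains they were 2 in control mice (11.1%), 3 in noise-exposed mice (10.6%) and 3 for the mean (15.3%). From these counts of 5 or fewer, the collagen share was above that over all probe sets for noise in each strain and for the difference of noise effects. It was below that share in the other comparisons. In the 4 comparisons of pairs of groups, the arrays did not overlap for 6 of 32 collagen probe sets for noise in 129X1/SvJ (16% of all probe sets), 14 for noise in B6.CAST (29.6%), 11 between control strains (29.9%) and 13 between noise-exposed strains (25.3%). In each of these 4 comparisons the collagen share is above that over all probe sets, but probe sets of 1 gene and chains that vary together are not independent. Absence of calls does not show equal levels: the 95% interval lay within 1 log2 unit of 0 on both sides for 17 of 32 probe sets for noise in 129X1/SvJ, 18 for noise in B6.CAST and 27 for the mean noise effect, but for only 4 for the difference of noise effects.

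**Figure D1:**
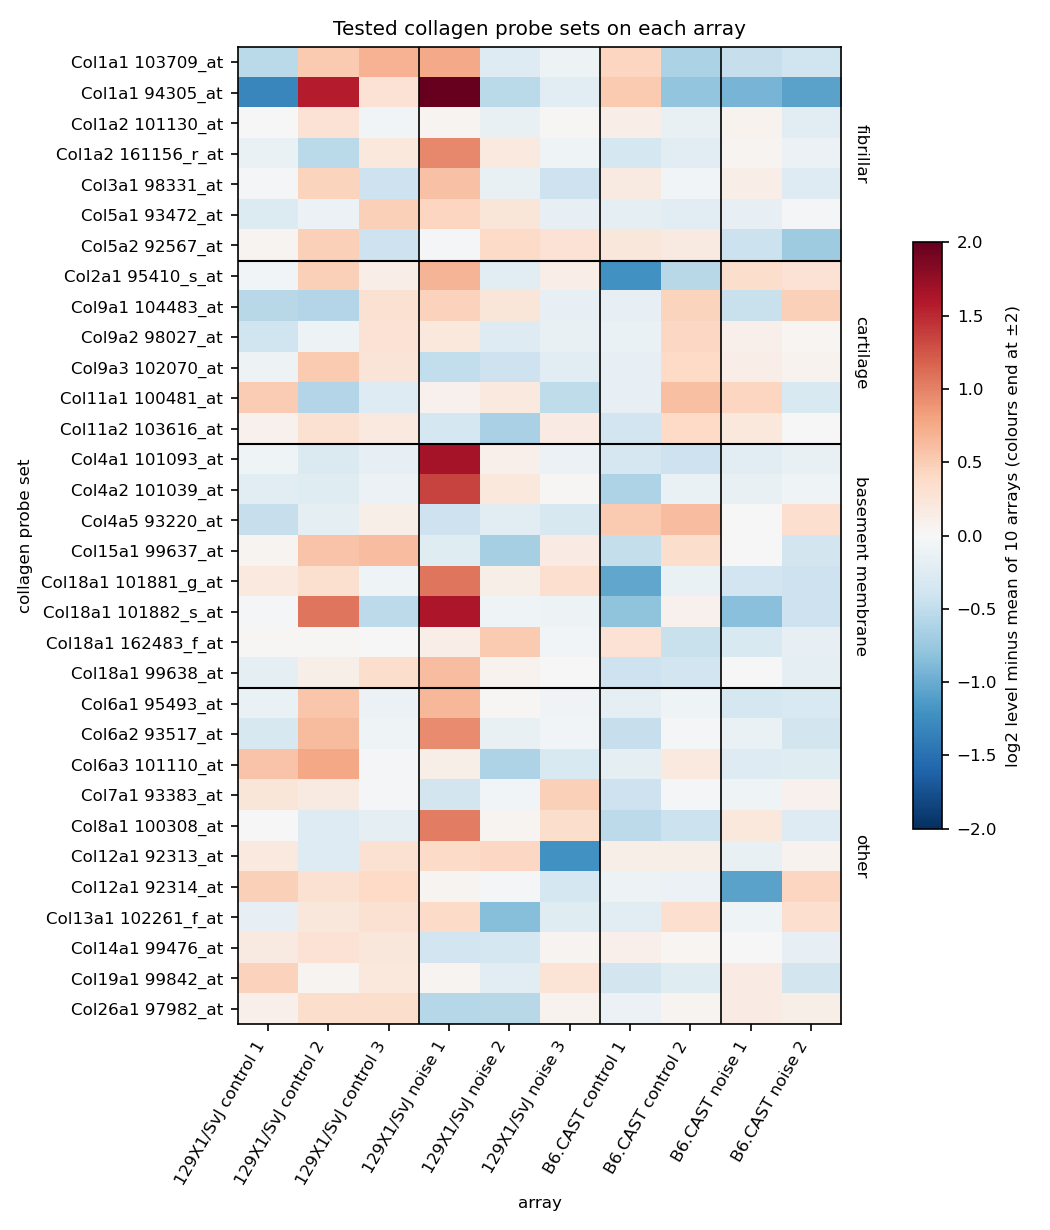
Deviation of each tested collagen probe set from its mean over the 10 arrays (colour, log2 units), with the 32 probe sets as lines grouped by class and the arrays as columns grouped by strain and exposure. The first 129X1/SvJ noise array is the highest of the 10 in 14 of the 32 probe sets, most of them fibrillar and basement membrane chains.

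By class, the noise effect in 129X1/SvJ had a median of 0.14 for the 7 fibrillar probe sets and 0.01 for the 6 cartilage ones. It was 0.24 for the 8 of basement membranes, several of them of Col18a1, and -0.22 for the 11 others, beside -0.04 for all probe sets tested. With the authors' scaling and no quantile normalization, each of these 11 effects was higher. That of the brighter Col12a1 probe set was -0.02 in place of -0.22. No value over all probe sets with that scaling is given here. The first 129X1/SvJ noise array, set against the mean of all arrays, had a median deviation of 0.84 over the basement membrane collagens and 0.58 over the fibrillar ones, but 0.15 over the cartilage ones. Without that array, 30 collagen probe sets passed the filter. The medians for noise in 129X1/SvJ were then -0.14 for fibrillar, -0.14 for cartilage, 0.08 for basement membrane and -0.39 for other collagens. Without the arrays whose Gapdh ratio was high, the same medians were 0.22, -0.19, 0.32 and -0.31. In B6.CAST the medians were -0.11, -0.04, 0.03 and -0.01 for the same 4 classes, beside 0.01 for all probe sets. In bulk tissue, fewer cells of a type and less RNA per cell cannot be told apart.

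**Figure D2:**
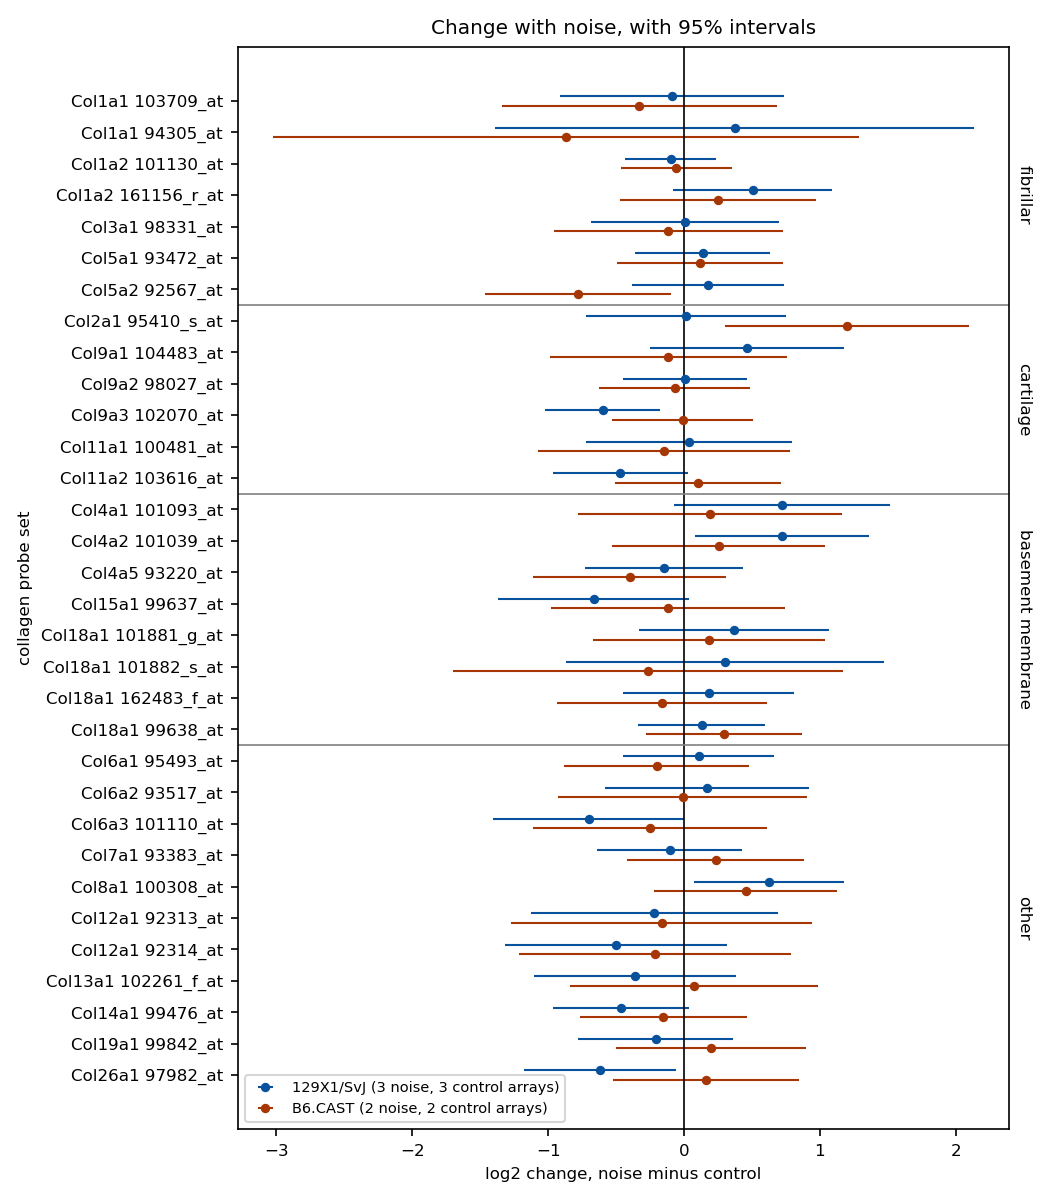
Noise effect on each tested collagen probe set (log2 difference, noise minus control) in 129X1/SvJ (3 against 3 arrays) and B6.CAST (2 against 2 arrays), with 95% intervals from limma. The estimates lie on both sides of 0 in every class, and the interval includes 0 for 27 of 32 probe sets in 129X1/SvJ and 30 of 32 in B6.CAST.

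Among the fibrillar collagens, Col1a2, the second chain of type I, had the steadiest signals. Its brighter probe set read 1574, 1968 and 1486 in 129X1/SvJ controls and 1578, 1378 and 1607 after noise, and 1702 and 1438 in B6.CAST controls and 1694 and 1349 after noise. The groups overlapped throughout, with a noise effect of -0.10 ± 0.15 in 129X1/SvJ (95% interval -0.43 to 0.24) and -0.06 ± 0.19 in B6.CAST (-0.47 to 0.35). These were the narrowest intervals of all collagen probe sets. The dimmer Col1a2 probe set did not follow it over the 10 arrays (r = -0.23), and its noise effects were 0.51 ± 0.27 and 0.25 ± 0.33. The first of these was 0.21 without the first 129X1/SvJ noise array.

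Col1a1, the main chain of type I and the most abundant matrix protein of bone, varied most. Its dimmer probe set read 53.4, 540 and 209 in 129X1/SvJ controls, 945, 118 and 138 after noise, 255 and 81.2 in B6.CAST controls and 70.3 and 77.4 after noise. The second 129X1/SvJ control, the first 129X1/SvJ noise and the first B6.CAST control array were the highest of their groups, and of the 4 groups only the B6.CAST noise arrays lay close together. Its SD within groups was 1.31 log2 units, a spread that 0.357% of the tested probe sets reached, against a median of 0.35 for the 32 collagen probe sets and 0.27 for all. The noise effect in 129X1/SvJ was 0.37 ± 0.80, and without the first noise array it was -0.57. Without the arrays whose Gapdh ratio was high, among them the second 129X1/SvJ control, it was 1.06. The brighter Col1a1 probe set varied together with the dimmer one (r = 0.89 over the 10 arrays) and gave -0.09 ± 0.38. Its effect was -0.40 without the first noise array and 0.06 without the arrays whose Gapdh ratio was high.

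Markers of other cells moved with Col1a1. Over the 10 arrays, which share pools with the collagen values, the mean log2 level of the 3 tested osteoclast markers correlated with the dimmer Col1a1 probe set at r = 0.89 (0.91 without the first 129X1/SvJ noise array) and that of 8 neutrophil markers at r = 0.83 (0.73 without it). The 3 tested bone markers gave r = 0.77 (0.66 without it) and 5 erythroid markers r = 0.77 (0.67 without it), while 6 endothelial markers gave -0.14 (0.29 without it). The summed signal of the tested osteoclast markers, 3 of the 5 listed, ran from 439 to 1027 in 129X1/SvJ controls, from 690 to 1160 after noise, from 512 to 1248 in B6.CAST controls and from 598 to 616 after noise. That of the neutrophil markers, 8 of 8 listed, ran from 3321 to 20597, from 12003 to 35356, from 5780 to 18801 and from 2253 to 2537 in the same groups. The erythroid markers, 5 of 7 listed, summed to between 12963 and 32330, 22091 and 35895, 9898 and 24583, and 7103 and 10311. Ibsp, bone sialoprotein, read 343 on the first B6.CAST control array, where Col1a1 was high, and 42.8, 41.1 and 66.4 on the other B6.CAST arrays. In 129X1/SvJ it read 206, 360 and 199 in controls and 413, 249 and 342 after noise. The other tested bone markers did not share the B6.CAST pattern. Alpl read 247 and 333 in B6.CAST controls and 237 and 242 after noise, and Dmp1 read 204 and 164, then 171 and 223. None of the tested markers of osteoclasts or bone was at 0, and the lowest, Mmp9, read 9.6 on a B6.CAST noise array. The part of these cells in the Col1a1 values was not tested.

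Col3a1, the type III chain of soft tissues and vessel walls, read 116, 160 and 92.6 in 129X1/SvJ controls, 223, 118 and 84.9 after noise, 154 and 108 in B6.CAST controls and 124 and 109 after noise. Its groups overlapped, with noise effects of 0.01 ± 0.31 and -0.11 ± 0.39. The first of these was 0.22 without the arrays whose Gapdh ratio was high, and -0.29 without the first 129X1/SvJ noise array. Col3a1 and its neighbour in the genome, Col5a2, correlated over the 10 arrays at r = 0.27 (0.37 without that array). Col5a1, a type V chain that sets fibril diameter, gave 0.14 ± 0.23 and 0.12 ± 0.28. The lowest p among fibrillar collagens was that of Col5a2, the second type V chain. It read 178, 239 and 131 in 129X1/SvJ controls and 199, 235 and 220 after noise, and 216 and 187 in B6.CAST controls and 110 and 107 after noise. The B6.CAST noise arrays were below every other array, while the 129X1/SvJ groups overlapped. Its noise effect in B6.CAST was -0.78 ± 0.31 (limma, unadjusted p = 0.0285, adjusted p = 1), and the strain difference after noise was -0.79 ± 0.28 (limma, unadjusted p = 0.0177, adjusted p = 0.305). The noise effect differed between strains by -0.96 ± 0.40 (limma, unadjusted p = 0.0358, adjusted p = 0.997), so neither this difference nor the others passed.

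**Figure D3:**
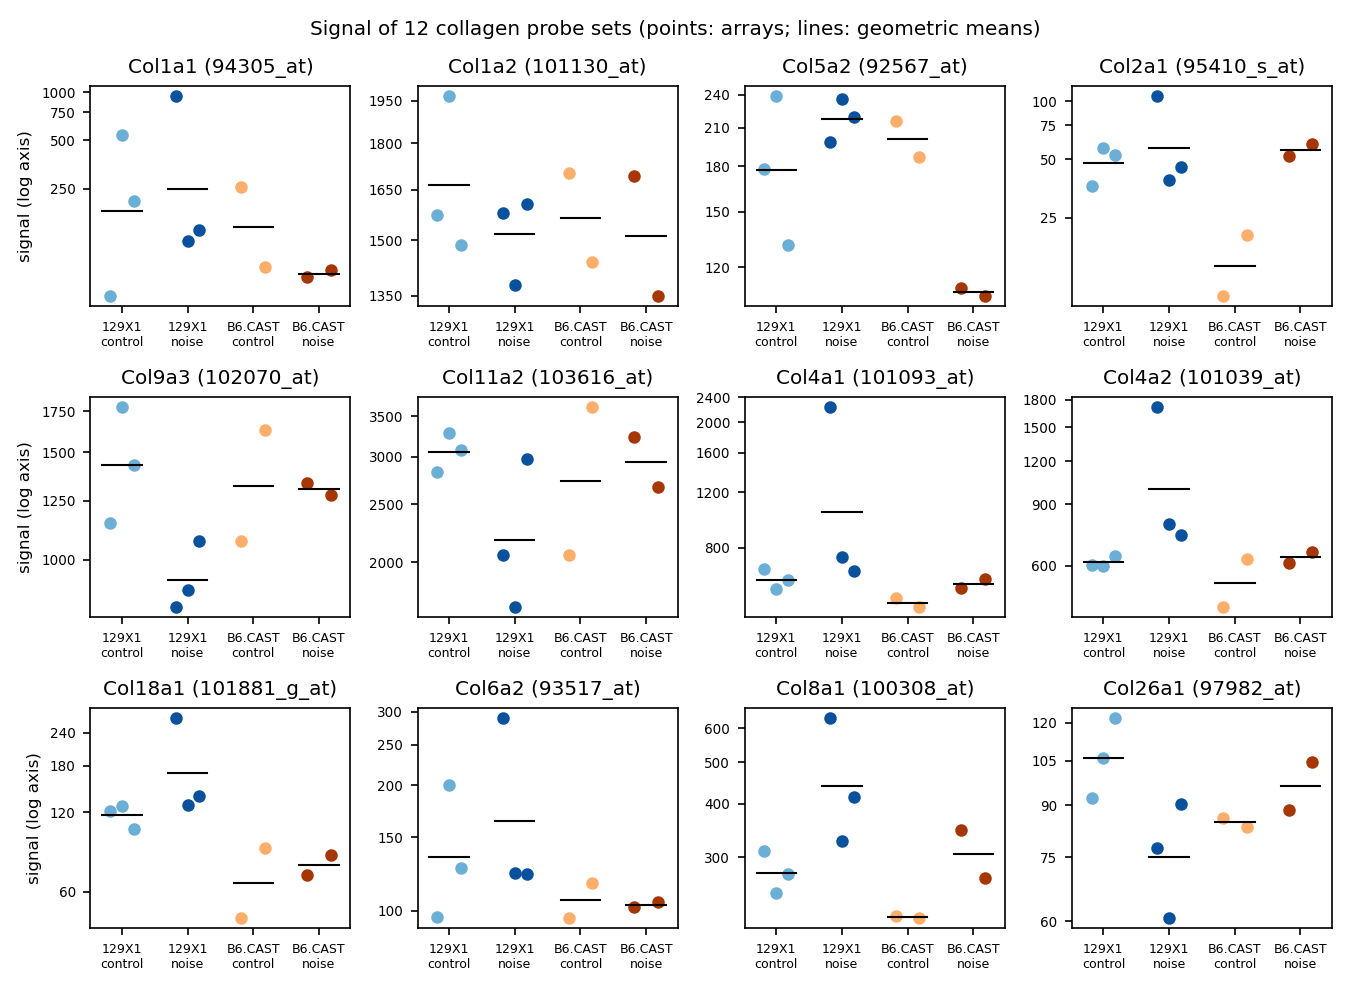
Deposited signal (log axis) of 12 collagen probe sets on each of the 10 arrays, by group, where points are arrays and lines are geometric means. Col1a2 is level across the groups, Col1a1 is scattered within them, Col5a2 is lowest on the 2 B6.CAST noise arrays, and Col4a1 and Col4a2 have a single high array.

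Of the cartilage collagens, Col9a3, the third chain of type IX, had the smallest p for noise. It read 1150, 1779 and 1431 in 129X1/SvJ controls and 836, 891 and 1073 after noise, so that all 3 noise arrays were below all 3 controls. In B6.CAST it read 1072 and 1629 in controls and 1335 and 1278 after noise, and the noise arrays lay between the controls. The noise effect was -0.60 ± 0.19 in 129X1/SvJ (limma, unadjusted p = 0.00999, adjusted p = 0.308) and -0.01 ± 0.24 in B6.CAST. It was -0.54 in 129X1/SvJ without the first noise array, and over the fits that each left out 1 array it ranged from -0.76 to -0.45. The difference of noise effects was 0.59 ± 0.31 (limma, adjusted p = 0.997).

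Col11a2, the type XI chain whose loss causes hearing loss with a disordered tectorial membrane, read 2827, 3281 and 3074 in 129X1/SvJ controls, 2059, 1684 and 2974 after noise, 2059 and 3627 in B6.CAST controls and 3230 and 2674 after noise. A single 129X1/SvJ noise array reached the control range. Its noise effects were -0.47 ± 0.23 and 0.10 ± 0.28. Col9a3 and Col11a2 varied together over the 10 arrays (r = 0.83, and 0.81 without the first 129X1/SvJ noise array). Col9a2 and Col9a3 gave r = 0.39 (0.66 without it), and Col9a1 and Col11a2 gave -0.27.

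Beside Col9a3 and Col11a2, most tested markers of fibroblasts, the spiral ligament and supporting cells were lower after noise in 129X1/SvJ. So were 4783 of the 8695 probe sets tested. Of the markers of fibroblasts and the spiral ligament, 8 of 8 had a negative noise effect, with a median of -0.24, and 0 were called by limma, while 2 had an unadjusted p under 0.05. Their mean log2 level correlated over the 10 arrays with Col9a3 at r = 0.67 (0.51 without the first 129X1/SvJ noise array) and with Col11a2 at r = 0.39 (0.20 without it). With Col9a1, another type IX chain, it gave r = -0.64 (-0.58 without it). The tested skeletal muscle markers correlated with Col9a3 at r = 0.40 (0.87 without that array) and with Col11a2 at r = 0.47 (0.79 without it). Of 6 tested markers of the tectorial membrane and supporting cells, 4 had a negative effect, with a median of -0.31, and 0 were called, with 1 at an unadjusted p under 0.05. The part of these cells in the values of Col9a3 and Col11a2 was not tested.

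The other cartilage chains overlapped between noise and control in 129X1/SvJ. Col9a1 read 166, 151 and 321 in 129X1/SvJ controls, 377, 307 and 230 after noise, 235 and 342 in B6.CAST controls and 171 and 376 after noise. Col9a2 read 1115, 1392 and 1774, then 1621, 1184 and 1336 in 129X1/SvJ, and 1304 and 1984, then 1584 and 1503 in B6.CAST. Col11a1, the chain that pairs with Col11a2, read 267, 106 and 155, then 227, 220 and 123, and 175 and 280, then 240 and 158. Their noise effects were 0.46 ± 0.32, 0.01 ± 0.21 and 0.04 ± 0.34 in 129X1/SvJ and -0.12 ± 0.40, -0.07 ± 0.25 and -0.15 ± 0.42 in B6.CAST.

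Col2a1, the chain of cartilage fibrils and of the tectorial membrane, was dim. It read 36.5, 57.5 and 52.7 in 129X1/SvJ controls, 106, 39.3 and 45.5 after noise, 9.8 and 20.4 in B6.CAST controls and 52.1 and 60.3 after noise. The B6.CAST controls were below every other array. The noise effect in B6.CAST was 1.20 ± 0.41, and the strain difference in controls was -1.06 ± 0.37, and neither was called. Its mean lay 0.03 log2 units above the filter, which corresponds to a signal of 42.9. It passed in 7 of the fits that each left out 1 array, and not without the first 129X1/SvJ noise array. Nor did it pass without the arrays whose Gapdh ratio was high. Its values are therefore given as a description only. It is 1 of the 2 probe sets counted above at an unadjusted p under 0.05 for noise in B6.CAST, and 1 of the 2 between control strains.

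Among basement membrane collagens, the chains of the most common type IV molecule, Col4a1 and Col4a2, shared their pattern. Col4a1 read 684, 592 and 633 in 129X1/SvJ controls, 2234, 747 and 674 after noise, 556 and 519 in B6.CAST controls and 595 and 639 after noise. Col4a2 read 602, 600 and 639, then 1717, 792 and 734 in 129X1/SvJ, and 455 and 628, then 612 and 658 in B6.CAST. The first 129X1/SvJ noise array was by far the highest for both, the third overlapped the controls for Col4a1, and all 3 noise arrays exceeded the controls for Col4a2. The noise effects in 129X1/SvJ were 0.72 ± 0.36 for Col4a1 and 0.72 ± 0.29 for Col4a2 (limma, unadjusted p = 0.0709 and 0.031, adjusted p = 0.467 and 0.403). Without the first noise array they were 0.16 and 0.31. In B6.CAST they were 0.19 ± 0.44 and 0.26 ± 0.36.

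Over the 10 arrays Col4a1 and Col4a2, whose start sites overlap in the sequence shown above, correlated at r = 0.95, and at 0.69 without the first 129X1/SvJ noise array. On that array the 13 laminins, nidogens and perlecan did not stand apart as a list: their mean log2 level was 0.00 from the mean of the arrays, within a range of -0.28 to 0.25 over all 10. Single members went both ways. Hspg2, the basement membrane proteoglycan perlecan, read 462 there and 166 to 298 elsewhere, while Nid2, the basement membrane linker nidogen-2, read 33.5 there and 36.9 to 118 elsewhere. Of markers of endothelial cells, Pecam1 and Kdr read 163 and 257 there, within the ranges of the other arrays, and Tek read 189 there and 227 to 389 elsewhere. The mean log2 level of the 6 tested endothelial markers was the lowest of the 10 there, at -0.13 from the mean of the arrays, and their summed signal of 4859 lay within the range of 4626 to 5572. The summed signal of the 8 neutrophil markers was the highest of all there at 35356, and so was that of the 5 erythroid markers at 35895. The mean log2 level of 8 markers of fibroblasts and the spiral ligament was lowest there, 0.49 below the mean of the arrays, and it correlated with Col4a1 at r = -0.81 over the 10 arrays and -0.40 without that one. The part of these in the Col4a1 and Col4a2 values was not tested.

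Col4a5, a chain of the type IV molecule of the cochlea and kidney, read 36.3, 45 and 72.7 in 129X1/SvJ controls, 62.4, 56.5 and 43 after noise, 103 and 94.5 in B6.CAST controls and 54.3 and 90 after noise. The B6.CAST controls were above the other 8 arrays. The strain difference was 0.74 ± 0.30 in controls (limma, adjusted p = 0.372) and 0.61 ± 0.21 for the mean of both conditions (limma, unadjusted p = 0.0134, adjusted p = 0.168). Col15a1, a chain of the zone beneath basement membranes, gave noise effects of -0.67 ± 0.32 and -0.12 ± 0.39. The partners of Col4a5 in its type IV molecule, Col4a3 and Col4a4, read at most 10 and 44.3 on any array and were not tested.

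Col18a1, whose C-terminal fragment is endostatin, had the smallest adjusted p of all collagens. Its second brightest probe set read 122, 127 and 104 in 129X1/SvJ controls, 272, 128 and 138 after noise, 47.7 and 88.2 in B6.CAST controls and 69.8 and 82.7 after noise. All 4 B6.CAST arrays were below all 6 of 129X1/SvJ. The strain difference for the mean of both conditions was -0.82 ± 0.25 (limma, unadjusted p = 0.00729, adjusted p = 0.118), and -0.69 without the first 129X1/SvJ noise array. The brightest Col18a1 probe set read 329, 406 and 483, then 568, 394 and 390 in 129X1/SvJ, and 287 and 272, then 359 and 333 in B6.CAST. Its strain difference was -0.41 ± 0.17 (limma, unadjusted p = 0.0315, adjusted p = 0.263), and of the other 2 tested probe sets of the gene 1 gave -0.27 ± 0.23. The last gave -0.82 ± 0.42, but it passed the filter on dim probe sets only with the first 129X1/SvJ noise array, where it read 214 against 18.9 to 108 elsewhere, so its value is given as a description only. None of the 4 passed the test. They share a target gene and are not independent. Col18a1, Col6a1, Col6a2 and Col13a1 lie on chromosome 10, as does Cdh23.

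**Figure D4:**
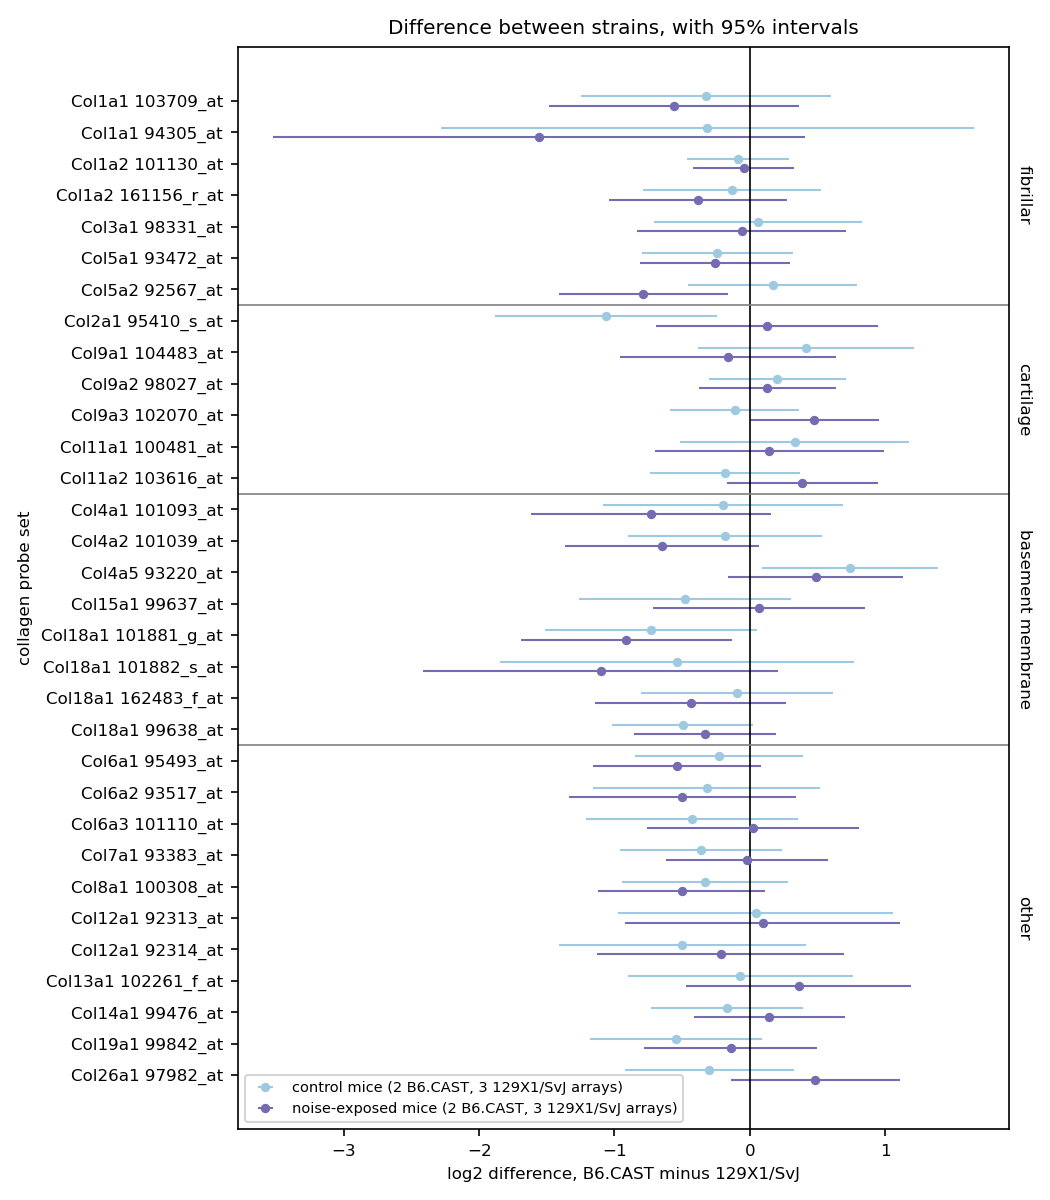
Strain difference of each tested collagen probe set (log2 difference, B6.CAST minus 129X1/SvJ), drawn apart for control mice and for mice after noise, with 95% intervals from limma (2 against 3 arrays each). Fibrillar and basement membrane probe sets lie mostly left of 0 after noise, with medians of -0.39 and -0.54, and the cartilage ones mostly right of it, with a median of 0.14. Several of the basement membrane probe sets are of a single gene, Col18a1.

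Across the collagens, B6.CAST values were more often the lower ones. In controls, 25 of 32 probe sets were lower in B6.CAST, with a median of -0.21, beside 56.4% of all probe sets and a median of -0.05. After noise, 20 of 32 were lower, beside 47.6% of all, with medians of -0.15 and 0.02. By class, the strain difference after noise had a median of -0.39 for fibrillar collagens, with 7 of 7 lower, -0.54 for basement membrane collagens, with 6 of 8 lower, 0.14 for cartilage collagens, with 5 of 6 higher, and -0.02 for the others. Several of the 8 basement membrane probe sets are of 1 gene, Col18a1, and are not independent. Of these 1, and Col2a1 among the cartilage ones, did not pass the filter without the first 129X1/SvJ noise array. Without that array the medians for fibrillar and basement membrane collagens were -0.13 and -0.17. After noise, 2 of 7 basement membrane and 4 of 5 cartilage probe sets were then higher in B6.CAST. Of the 30 probe sets then tested, 7 were higher in B6.CAST in controls and 12 after noise. Markers of blood and bone cells also differed between the noise-exposed strains: 8 of 8 neutrophil markers were lower in B6.CAST in sign (median -3.01, 0 called by limma and 8 with an unadjusted p under 0.05), as were 5 of 5 erythroid (median -1.75, 1 called and 5 with such a p) and 3 of 3 bone markers (median -0.86, 0 called and 2 with such a p). The erythroid call was Hbb-b2, a haemoglobin chain, at -2.51 ± 0.53 (limma, adjusted p = 0.0422). Of the 3 tested osteoclast markers, 2 were lower in B6.CAST after noise and 1 was higher (median -0.97). In control mice 7 of 8 neutrophil markers (median 0.21) and 2 of 3 osteoclast markers (median 0.11) were higher in B6.CAST. There the erythroid markers (5 of 5, median -0.28) and bone markers (3 of 3, median -0.64) were lower, and 0 of these lists were called. The part of these cells in the collagen values was not tested. The noise effect in 129X1/SvJ and the strain difference after noise share the 129X1/SvJ noise arrays.

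Among collagens of other types, Col8a1, a short-chain collagen of vessel walls and of corneal and other basement membranes, had the smallest p for noise. It read 311, 248 and 274 in 129X1/SvJ controls and 634, 327 and 414 after noise, and 219 and 216 in B6.CAST controls and 347 and 268 after noise. In each strain all noise arrays were above all controls. The noise effects were 0.63 ± 0.25 in 129X1/SvJ (limma, unadjusted p = 0.0294, adjusted p = 0.401) and 0.45 ± 0.31 in B6.CAST, with a mean of 0.54 ± 0.20 (limma, unadjusted p = 0.0195, adjusted p = 0.549). Once the first 129X1/SvJ noise array was dropped, the effect in 129X1/SvJ was 0.36 and the mean 0.41, and the mean was 0.39 in the absence of the 2 arrays whose Gapdh ratio was high. No collagen had a smaller p for the mean noise effect, and Col8a1 did not pass.

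Type VI forms beaded filaments around cells. Col6a1 read 247, 410 and 256 in 129X1/SvJ controls, 450, 283 and 265 after noise, 250 and 247 in B6.CAST controls and 196 and 228 after noise. Col6a2 read 96.6, 200 and 126, then 290, 123 and 123 in 129X1/SvJ, and 95.9 and 117, then 102 and 105 in B6.CAST. The same pair of 129X1/SvJ arrays, the second control and the first noise array, was high for both. The chains correlated over the 10 arrays at r = 0.93, and at 0.87 without the first 129X1/SvJ noise array. Their noise effects in 129X1/SvJ were 0.11 ± 0.25 and 0.17 ± 0.34, or -0.12 and -0.18 without that array. Without the arrays whose Gapdh ratio was high they were 0.33 and 0.44. Col6a3, the third chain, had its 2 highest deposited signals on the second 129X1/SvJ control and the first noise array. It read 75.8, 84.7 and 51.9, then 77.9, 30.5 and 33.6 in 129X1/SvJ, and 45.2 and 52, then 35.5 and 42.3 in B6.CAST. Its noise effects were -0.70 ± 0.32 (limma, unadjusted p = 0.0494, adjusted p = 0.432) and -0.25 ± 0.39. After quantile normalization its log2 level on the first noise array was 6.16. That is below 6.62 on the first 129X1/SvJ control and 6.24 on the second B6.CAST control.

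**Figure D5:**
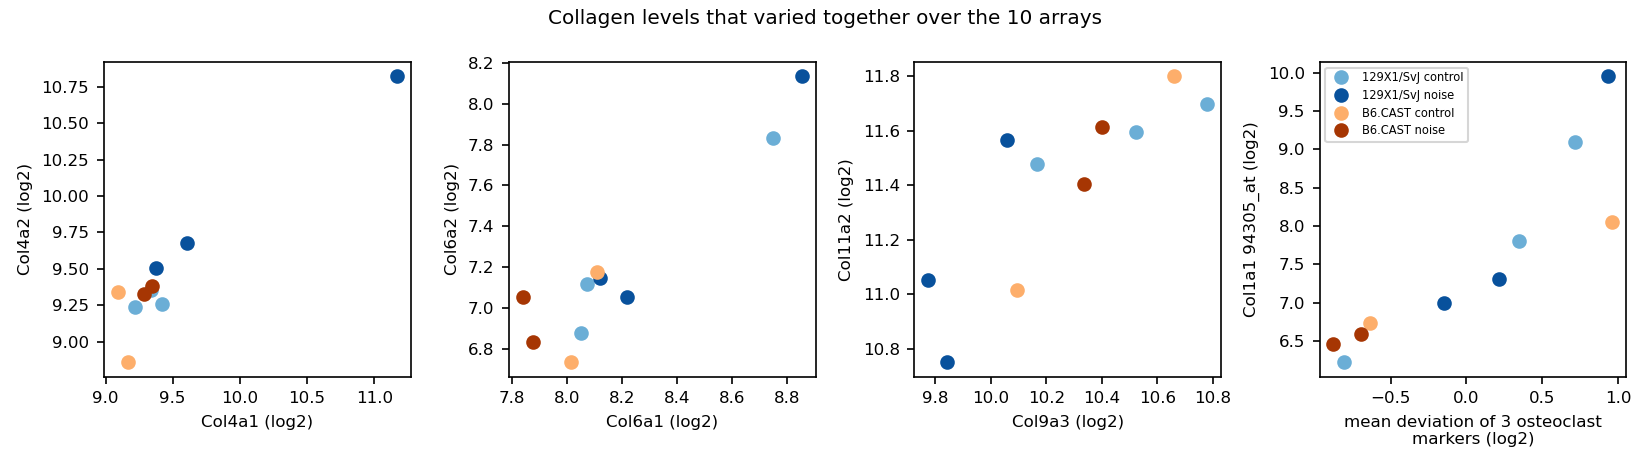
Log2 levels of pairs of collagen chains on the 10 arrays, with 1 point per array, coloured by group. Col4a1 and Col4a2 (r = 0.95) and Col6a1 and Col6a2 (r = 0.93) follow each other, and the first 129X1/SvJ noise array lies at the upper end of both.

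Col26a1, a collagen first described in testis and ovary, read 92.2, 106 and 122 in 129X1/SvJ controls and 77.5, 60.6 and 90.3 after noise, and 86.1 and 83.5 in B6.CAST controls and 88.4 and 105 after noise. The noise arrays were all below the controls in 129X1/SvJ and all above them in B6.CAST. The noise effects were -0.62 ± 0.26 (limma, unadjusted p = 0.0327, adjusted p = 0.41) and 0.16 ± 0.31, and they differed by 0.78 ± 0.40 (limma, unadjusted p = 0.0774, adjusted p = 0.997). Col14a1, a collagen that binds to the surface of fibrils, was the least variable member, with an SD within groups of 0.15 log2 units, and gave -0.47 ± 0.23 and -0.15 ± 0.28. The tested probe sets of Col7a1, the anchoring fibril chain, and of Col12a1, Col13a1 and Col19a1 had noise effects between -0.50 and -0.11 in 129X1/SvJ and between -0.21 and 0.23 in B6.CAST. The -0.50 is of a Col12a1 probe set 0.005 log2 units above the filter, which passed in 6 of the fits that each left out 1 array. The -0.11 is of Col7a1 and was 0.09 without the first 129X1/SvJ noise array.

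Genes that make, bind or regulate collagen were compared in the same fit, in 7 lists. Of 17 tested genes for folding and modification of collagen in the endoplasmic reticulum, 0 were called by limma in any of the 7 comparisons, with 0 at an unadjusted p under 0.05 for noise in either strain and at most 2 in the other comparisons. Serpinh1, the collagen-specific chaperone, had noise effects of -0.13 ± 0.17 and -0.30 ± 0.21 and a mean strain difference of 0.38 ± 0.14 (limma, adjusted p = 0.195). Likewise 0 were called of 7 genes for processing and cross-linking, 5 of cartilage matrix, 13 laminins, nidogens and perlecan, and 7 collagen receptors. For noise in 129X1/SvJ, the counts of these at an unadjusted p under 0.05 were 0, 1, 1 and 0 in that order, and 0 in each of them for noise in B6.CAST, with at most 2 per list in the other comparisons. The 1 of cartilage matrix was Acan, aggrecan, with noise effects of -0.64 ± 0.26 and -0.24 ± 0.32 (limma, adjusted p = 0.401 and 1).

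Calls were made in the 2 remaining lists. Of 16 small leucine-rich proteoglycans and proteins bound to fibrils, Fbln2 and Dcn were lower in B6.CAST. For noise, 0 were called in either strain, with 4 at an unadjusted p under 0.05 in 129X1/SvJ and 1 in B6.CAST. Fbln2, a fibulin of elastic fibres and basement membranes, read 797, 911 and 670, then 1139, 738 and 839 in 129X1/SvJ, and 334 and 443, then 409 and 351 in B6.CAST. All B6.CAST arrays were below all those of 129X1/SvJ. The mean strain difference was -1.08 ± 0.17 (limma, adjusted p = 0.00388), and in noise-exposed mice it was -1.19 ± 0.24 (limma, adjusted p = 0.0295). The mean difference was called in all 10 fits that each left out 1 array. The difference after noise was called in 4 of them (adjusted p from 0.0339 to 0.317), and not without the first or second 129X1/SvJ control, the first or the third 129X1/SvJ noise array, or either B6.CAST noise array. Dcn, decorin, which coats type I fibrils, had a mean strain difference of -0.62 ± 0.11 (limma, adjusted p = 0.00985) and noise effects of -0.14 ± 0.14 and -0.09 ± 0.17. Its strain difference was called in 9 of the 10 such fits, and not without the second B6.CAST control array (-0.55, limma, adjusted p = 0.057).

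Of 17 tested regulators of collagen genes, 13 were higher after noise in 129X1/SvJ (median 0.34), beside 3912 of all 8695 probe sets. An unadjusted limma p under 0.05 was found for 8 of the 17 (11.5% of all), and 1 was called (0.506% of all). The called gene was Egr1, an immediate early transcription factor. It read 238, 278 and 247 in 129X1/SvJ controls and 2692, 806 and 854 after noise, and 186 and 212 in B6.CAST controls and 591 and 322 after noise. In both strains all noise arrays were above all controls. The noise effect was 2.20 ± 0.41 in 129X1/SvJ (limma, adjusted p = 0.0454) and 1.08 ± 0.50 in B6.CAST (limma, adjusted p = 1), and the difference between them did not pass (-1.12 ± 0.65, limma, adjusted p = 0.997). The call in 129X1/SvJ held in 4 of the 10 fits that each left out 1 array (adjusted p from 0.0354 to 0.181). It was lost without any 1 of the 129X1/SvJ controls, either B6.CAST control or the first B6.CAST noise array, and it held at 1.64 without the first 129X1/SvJ noise array. Tgfbi, a collagen-binding protein induced by TGF-beta, had noise effects of 0.61 ± 0.22 and 0.60 ± 0.26 (limma, adjusted p = 0.36 and 1), with all noise arrays above all controls in each strain.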

How the data were processed

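The deposited values are signal intensities on a linear scale, with 1 value per probe set and array. The authors' intensities have about the same trimmed mean on every array, so they had been scaled, while for software, scaling target and genome build the sources used here give nothing. Arrays spelled 129XI/SvJ in the labels were kept in 129X1/SvJ. Each intensity was taken as log2(intensity + 16), and arrays were quantile normalized. Symbols of the platform annotation were updated through the RefSeq table (GRCm38.p6). The 66 control probe sets and the dimmest 30% of the others by mean over all arrays were left out. A model of 4 group means over all 10 arrays, with a variance trend, came from limma 3.58.1 in R 4.3.3, and 7 comparisons were adjusted by the Benjamini-Hochberg method over 8695 probe sets, with a threshold of 0.05. The fit was tested on simulated data. The number of arrays limits the precision, and p-values measure the spread between pools of mice.

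Members, classes and gene lists were chosen with earlier results of these data known. The rule for named genes took calls, the highest signal and smallest p of each class, the tested chains of types I, II, III, IV, IX and XI, and up to 4 genes of each list by smallest p. Col5a1, Col6a1, Col6a2, Col6a3, Col14a1, Col15a1, Col26a1, Hspg2, Nid2, Ibsp, Alpl, Dmp1, Mmp9, Pecam1, Kdr and Tek were named after their values were seen, as were Coch, Gjb2 and Otog. Replicate numbers did not pair the arrays and no block was used. Alternatives were scaling, pseudocount, filter, variance trend, array weights, arrays in the fit, replicate block, threshold and arrays left out.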

Additional observations from a re-analysis of the deposited data

Results flagged for a closer look

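One collagen stood out because its arrays moved in opposite directions in the 2 strains. Col26a1 was lower on all 3 noise arrays than on all controls in 129X1/SvJ and higher on both noise arrays than on both controls in B6.CAST. The noise effect in B6.CAST minus that in 129X1/SvJ was 0.78 log2 units, and limma's test of this difference did not pass (unadjusted p = 0.0774, adjusted p = 0.997). With the authors' scaling the difference was 0.58, and it ranged from 0.69 to 0.99 over the fits that each dropped 1 array.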

How the results depend on the processing

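In all 144 alternatives, the number of collagen probe sets called was 0, as in the values reported. Of 137 alternatives for the median change of the tested collagen probe sets, 136 stayed within the spread between arrays (0.21 log2 units, SD). That spread is wider than most of these medians, so staying within it does not show a stable direction. The medians ran from -0.16 to 0.17 for noise in 129X1/SvJ, from -0.13 to 0.01 for the mean noise effect and from -0.25 to 0.11 for the difference of noise effects. Those of the strain comparisons stayed below 0. The alternative outside that spread was for noise in B6.CAST, where leaving out 1 array at a time gave medians from -0.18 to 0.20. The highest was without the second B6.CAST control array, beside -0.06 with all arrays. All 345 alternatives for single probe sets with an unadjusted p under 0.05 kept their direction, and none had a limma adjusted p under the threshold (the smallest was 0.0628). These probe sets were picked by their p on the same arrays, so a kept direction is no independent evidence. With 2 or 3 arrays a group, the distance from a collagen estimate to the end of its 95% interval ran from 0.34 to 1.76 log2 units for noise in 129X1/SvJ (median 0.64) and from 0.41 to 2.16 in B6.CAST (median 0.78). Chosen after seeing the data, the same alternatives were run for the called genes of the lists: the call held in 9 of 20 for Egr1 with noise in 129X1/SvJ, in 10 of 20 for Fbln2 between noise-exposed strains, and for the mean strain difference in 19 of 19 for Fbln2 and 16 of 19 for Dcn, and the cause of the losses was not tested.

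The replicate numbers in the labels did not pair the arrays: the correlations of deviations between same-numbered arrays of different groups ran from -0.39 to 0.14 over 13 pairs, with 2 over 0.1, and 0 of 3 noise arrays of 129X1/SvJ correlated best with the control of its own number. With the replicate block, 0 collagen probe sets were called, and the median changes were 0.01 for noise in 129X1/SvJ, -0.06 for noise in B6.CAST, -0.24 between control strains and -0.17 between noise-exposed strains. The block ended the calls of Egr1 (limma, adjusted p = 0.0661) and of Fbln2 between noise-exposed strains (limma, adjusted p = 0.0911).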
